A study of Homo sapiens with 4 samples.

Results

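Binding of the transcription factor USF1 was examined at 42 human genes for lysosomal membrane proteins, ion channels, transporters and the machinery that sorts enzymes to the lysosome, out of 20033 protein-coding genes. The genes were chosen by name: 11 structural membrane proteins, 9 ion channels and their subunits, 15 transporters, and 7 sorting receptors with the enzymes and factors that act before them. The data came from chromatin immunoprecipitation and sequencing in Huh7 cells, a human hepatocellular carcinoma line in which USF1 was overexpressed. An antibody to the FLAG tag was used for the precipitation in 2 libraries (IP 1 and IP 2), and 2 input libraries of the same line were sequenced beside them. List 1 holds the peaks of IP 1 over input 1, and list 2 those of IP 2 over input 2. Cells without the overexpressed protein and IgG libraries were not analysed here, and the labels do not say whether the replicates came from separate cultures. A peak was assigned to a gene when its centre lay in the gene or within 1 kb of it (GRCh38, RefSeq), and it was called shared when a list 1 and a list 2 peak at that gene overlapped by at least 1 bp.

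The lysosome is bounded by a membrane rich in glycosylated proteins, which shield it from its own hydrolases and carry the channels and transporters that move ions, lipids, sugars and amino acids in and out. Newly made hydrolases receive a mannose phosphate tag in the Golgi and are carried onward by mannose phosphate receptors. Many lysosomal genes share a promoter element, the CLEAR element, which contains the E-box core CACGTG and is bound by TFEB and its relatives. USF1 is a basic helix-loop-helix leucine zipper factor that also binds CACGTG.

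The lists held 14300 and 27325 peaks from 47165647 and 43942638 IP tags kept by the caller. Of these peaks, 1.92% in list 1 and 30.8% in list 2 had a false discovery rate (FDR) at or under 5%. The peak lists carry no expression values, so the identity of the line and the level of USF1 were not checked, and the USF1 gene itself had 0 peaks in either list. Each list rests on 1 IP, so both values are given throughout and no test was made between lists or between gene groups. Folds, scores, FDRs and tag counts of single peaks are the authors' own.

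Promoter sequences show what lay under some of the peaks. Those below are the members with the highest folds at a gene end, then SLC36A1 and GNPTG, and finally SIDT2 and SLC17A5, which had no peak in either list. SLC36A1 and GNPTG were added after their values were seen, because each had CACGTG and a shared peak at a listed start. CLN3, SLC38A7, CD63 and M6PR also had both and are not shown. The lower of their 2 folds was 8.53, 10.11, 4.57 and 3.93, against 21.8 at SLC36A1 and 12.07 at GNPTG. Shared members without CACGTG in their windows are not among these sequences. Each runs 5′ to 3′ from 200 bases before the listed start site through the first 20 transcribed bases (RefSeq, GRCh38.p14), and capitals mark CACGTG.
LAMP1, chr13:113297039-113297258, plus strand: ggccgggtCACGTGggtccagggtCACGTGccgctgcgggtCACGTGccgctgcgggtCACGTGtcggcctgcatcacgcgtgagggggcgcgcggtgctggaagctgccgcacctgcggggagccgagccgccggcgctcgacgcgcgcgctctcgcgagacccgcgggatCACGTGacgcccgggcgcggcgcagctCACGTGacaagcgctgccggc
CLCN7, chr16:1475009-1475228, minus strand: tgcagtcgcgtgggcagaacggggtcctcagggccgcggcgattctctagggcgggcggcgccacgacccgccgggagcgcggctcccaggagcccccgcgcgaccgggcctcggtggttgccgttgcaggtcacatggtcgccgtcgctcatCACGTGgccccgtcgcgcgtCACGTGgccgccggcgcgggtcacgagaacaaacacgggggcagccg
CLCN6, chr1:11805991-11806210, plus strand: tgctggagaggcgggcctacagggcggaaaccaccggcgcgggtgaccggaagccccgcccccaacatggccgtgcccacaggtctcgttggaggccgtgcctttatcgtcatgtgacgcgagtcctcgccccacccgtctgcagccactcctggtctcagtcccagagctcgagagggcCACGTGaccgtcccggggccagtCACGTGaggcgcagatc
MCOLN1, chr19:7522424-7522643, plus strand: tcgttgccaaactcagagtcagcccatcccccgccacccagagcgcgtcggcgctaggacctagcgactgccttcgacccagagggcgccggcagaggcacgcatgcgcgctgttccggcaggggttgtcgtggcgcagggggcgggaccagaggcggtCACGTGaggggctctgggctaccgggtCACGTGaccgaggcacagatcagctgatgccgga
SLC36A1, chr5:151447403-151447622, plus strand: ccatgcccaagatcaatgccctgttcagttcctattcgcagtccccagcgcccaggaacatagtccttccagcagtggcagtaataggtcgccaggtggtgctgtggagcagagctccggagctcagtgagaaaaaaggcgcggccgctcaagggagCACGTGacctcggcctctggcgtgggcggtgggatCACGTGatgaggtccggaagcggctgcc
SPNS1, chr16:28974578-28974797, plus strand: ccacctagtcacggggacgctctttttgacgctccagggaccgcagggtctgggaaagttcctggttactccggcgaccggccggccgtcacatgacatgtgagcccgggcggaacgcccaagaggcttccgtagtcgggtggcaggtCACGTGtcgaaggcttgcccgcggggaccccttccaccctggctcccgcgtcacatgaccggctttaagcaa
IGF2R, chr6:159968882-159969101, plus strand: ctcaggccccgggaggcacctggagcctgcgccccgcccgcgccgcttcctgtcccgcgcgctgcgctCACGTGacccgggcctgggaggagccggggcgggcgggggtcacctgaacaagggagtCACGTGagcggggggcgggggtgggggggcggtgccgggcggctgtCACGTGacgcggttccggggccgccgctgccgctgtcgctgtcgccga
GNPTG, chr16:1351731-1351950, plus strand: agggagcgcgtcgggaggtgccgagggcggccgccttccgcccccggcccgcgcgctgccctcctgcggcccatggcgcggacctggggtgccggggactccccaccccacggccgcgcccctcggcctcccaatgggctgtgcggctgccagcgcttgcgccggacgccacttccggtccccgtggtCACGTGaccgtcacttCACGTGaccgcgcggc
SIDT2, chr11:117178543-117178762, plus strand: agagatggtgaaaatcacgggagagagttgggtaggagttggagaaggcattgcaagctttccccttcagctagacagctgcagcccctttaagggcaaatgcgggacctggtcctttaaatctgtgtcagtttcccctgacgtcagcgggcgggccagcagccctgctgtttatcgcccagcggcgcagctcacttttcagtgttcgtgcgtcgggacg
SLC17A5, chr6:73653973-73654192, minus strand: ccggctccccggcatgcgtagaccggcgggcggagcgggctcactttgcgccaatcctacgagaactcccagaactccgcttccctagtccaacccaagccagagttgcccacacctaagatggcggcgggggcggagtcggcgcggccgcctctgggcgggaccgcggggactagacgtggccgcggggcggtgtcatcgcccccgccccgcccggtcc
LAMP1 held 6 copies of CACGTG in this stretch, IGF2R held 3, and CLCN7, CLCN6, MCOLN1, SLC36A1 and GNPTG each held 2. SPNS1 held 1 here and a further copy at position -250. SIDT2 and SLC17A5 held 0.

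Motifs were searched on both strands in the 300-base window around each listed start site, from 250 bases before it to 50 from it on. RefSeq windows were found for 36 of the 42 members (58 windows, since some genes list several starts) and for 15842 protein-coding genes (22198 windows). CACGTG was present in at least 1 window of 13 of the 36 members (36.1%), against 10.9% of all protein-coding genes with a window. The 8-base form TCACGTGA, which contains the core, was present in 7 members (19.4%, against 1.65%), and the CLEAR form, in which G stands before and C after those 8 bases, in MCOLN1, IGF2R and GNPTG (8.33%, against 0.638%). Several copies of CACGTG in 1 window were found in 9 members (25.0%, against 1.1% of all genes). The variant core CACATG was present in 8 members (22.2%, against 11.5%). A match shows the letters only and does not show which factor occupies them.

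The 13 members with CACGTG were all among the 19 members with a shared peak. Of the other 5 shared members with a window, CD68, LITAF, TPCN1, CTNS and CLN6, none held the core in these windows. CACGTG was found in 0 of the 10 list 2 only members with a window, in 0 of 6 members without a peak, and in neither GNPTAB nor SLC66A1. Every one of the 7 members with TCACGTGA (LAMP1, CLCN6, MCOLN1, SLC36A1, CLN3, GNPTG and IGF2R) had a shared peak over that window, and the lower of the 2 folds ranged from 8.53 to 32.83 with a median of 21.8. Across all genes with TCACGTGA, 194 of 262 (74.0%) had a shared peak over the window, with a median lower fold of 9.06. A shared peak lay over the window in 5 of 6 members with CACGTG alone, against 31.9% of such genes in all. Without CACGTG it did so in 4 of 23 members (17.4%, lower folds 4.89 to 6.05), against 9.45% of all such genes.

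**Figure D1:**
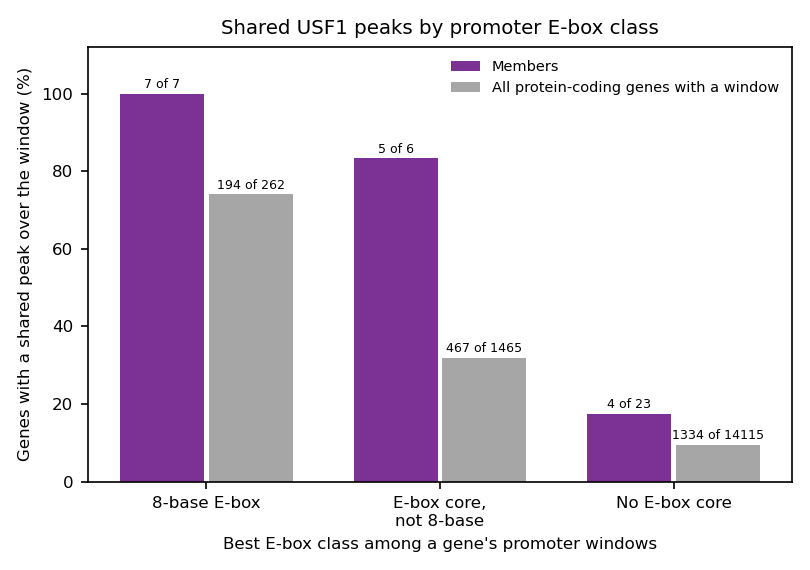
Share of genes (percent) with a shared USF1 peak over a promoter window, by the best E-box class among the gene's windows (8-base form TCACGTGA, core CACGTG without it, or no core), for the members and for all 15842 protein-coding genes with a window. Numbers above the bars are genes with a peak of genes in the class, and the bars fall from 7 of 7 to 4 of 23 in the members.

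Summits of the members' peaks lay close to these copies. In both lists the summit fell inside a CACGTG at CLCN7, MCOLN1 and IGF2R, as summits were placed here. At MCOLN1 and IGF2R both lists had the summit in the same copy. At CLCN7 the lists had it in different copies, which start 20 bp apart. Summit positions are uncertain by 1 bp. Moved by 1 bp up the chromosome, both summits were inside a core at CLCN7 alone, and moved down, at MCOLN1 and IGF2R. At CLCN6 it was 2 bp away in list 1 and inside the core in list 2, and at SLC36A1 it was inside the core in list 1 and 8 bp away in list 2. The summits at CLN3 were 7 bp from the core in each list, and those at SLC38A7 were 1 and 6 bp from it. At LAMP1 the distances were 4 and 20 bp, at GNPTG 4 and 15 bp, at SPNS1 7 and 27 bp and at CD63 55 and 6 bp. The summits at M6PR, 204 and 433 bp from its only CACGTG, and at ABCB9, over 28 kb from its own, were apart from the rest. Within 10 bp in both lists were 7 of 12 members with CACGTG under a shared peak (58.3%), against 22.2% of 661 protein-coding genes of that kind. That count of 7 was the same with summits moved by 1 bp either way. Distances were taken to the nearest copy, so several copies in a window make a short distance more likely. Several copies were held by 9 of the 36 members with a window (25.0%, against 1.1% of all genes with a window). That share was not counted among the 661 genes. Median lower folds over these windows were also higher in the members. They were 21.8 against 9.06 for all genes with TCACGTGA, and 10.1 against 6.7 with CACGTG alone. The comparison was not matched for copy number or fold.

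**Figure D2:**
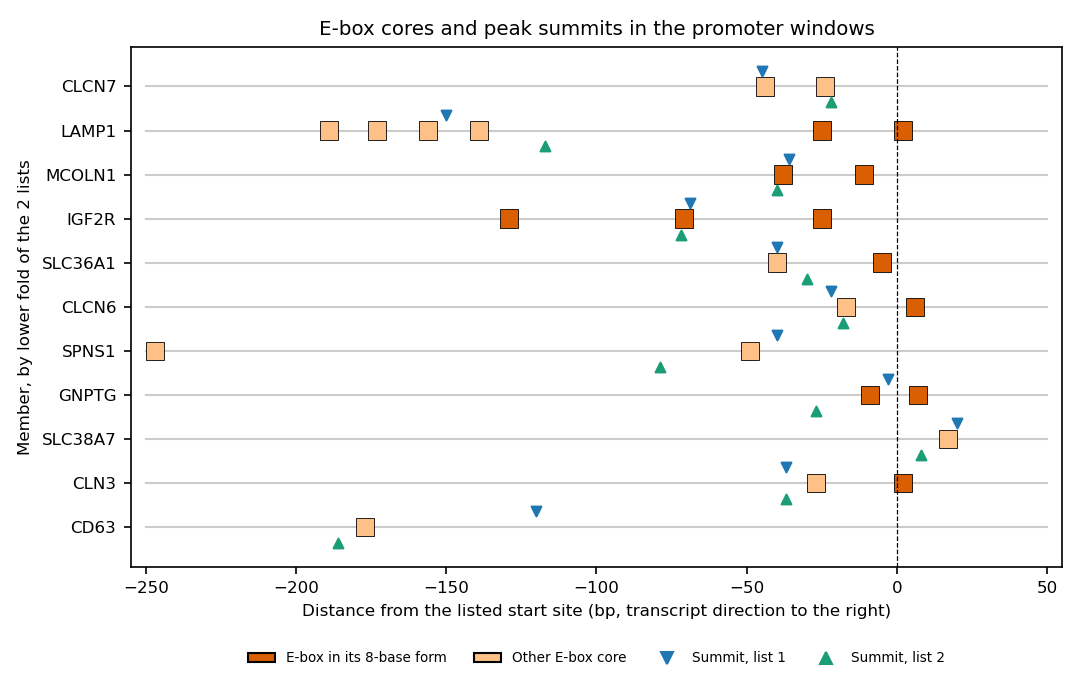
Positions of E-box cores (boxes, drawn to scale) and of peak summits (triangles, list 1 above and list 2 below each line) in base pairs from the listed start site for 11 members, ordered by the lower of the 2 folds. M6PR and ABCB9 also had a shared peak and CACGTG but were left out of the drawing. Their summits were 204 and 433 bp (M6PR) and over 28 kb (ABCB9) from that core. Summits stand on or beside a core in most rows drawn, and in LAMP1 they lie by the upstream cluster of 4 cores rather than the 2 cores next to the start.

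Shared peaks were found at 19 of the 42 members (45.2%), against 16.8% of all protein-coding genes. Peaks of list 1, shared or not, stood at 21 members (against 25.9% of all genes), and those of list 2 at 32 (76.2%, against 47.0%). Outside the shared set, 12 members had peaks in list 2 alone (28.6%, against 25.6% of all genes), and 9 had no peak in either list (21.4%, against 48.5%). SLC66A1 had a peak in list 1 alone, and GNPTAB had peaks in both lists that did not overlap. Members had a median gene length of 35.2 kb against 24.1 kb for all protein-coding genes, and longer genes hold more positions for a peak. Counted only within 1 kb of a gene end, shared peaks stood at 14 members (33.3%, against 11.3%), list 1 peaks at 16 (against 14.9%) and list 2 peaks at 24 (against 30.1%). Within 1 kb of a listed start site, 16 of 36 members had a shared peak (44.4%, against 12.8%), 18 a list 1 peak (against 16.5%) and 26 a list 2 peak (against 32.8%). Shared peaks that reached 8-fold in each list were found at 11 members (26.2%, against 3.28%), and those at or under 5% FDR in each list at 8 (19.0%, against 1.3%).

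**Figure D3:**
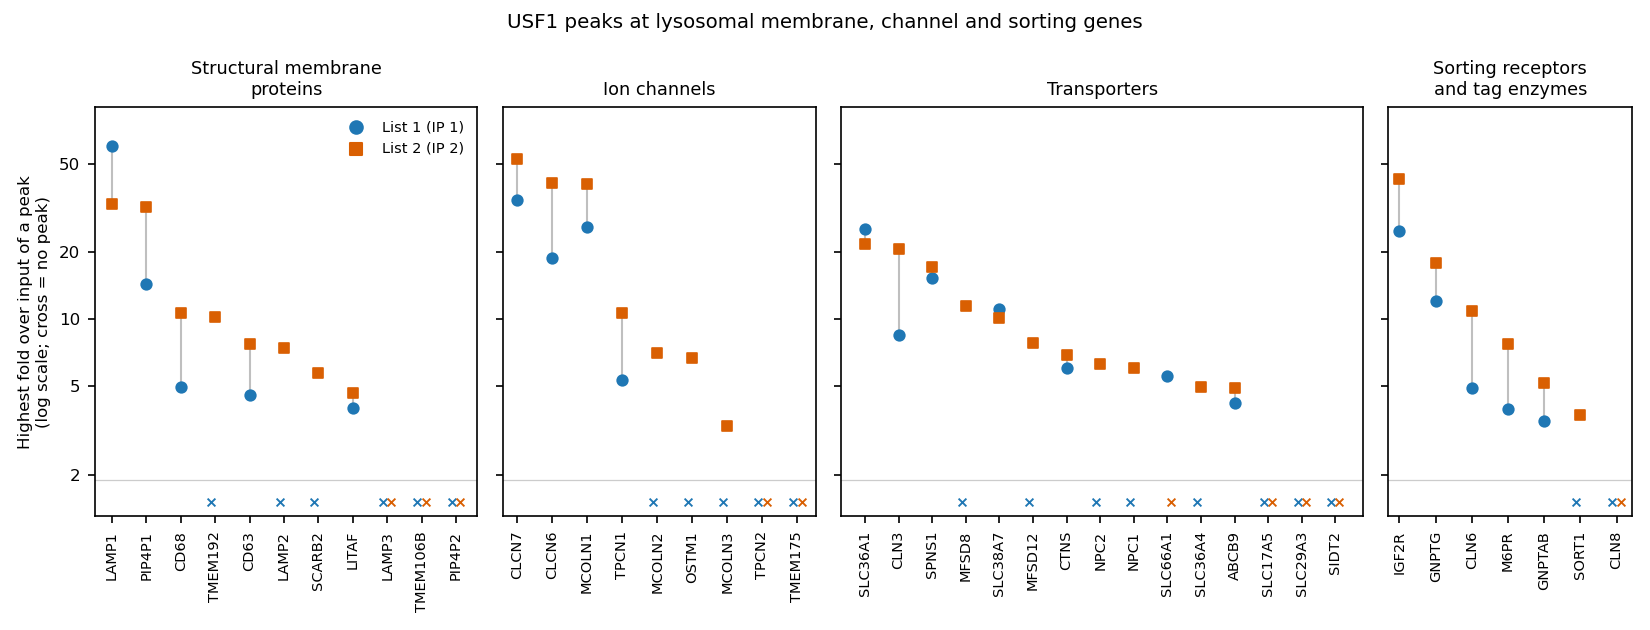
Highest fold over input of any peak at each of the 42 members (log scale), in list 1 (circles) and list 2 (squares), by functional group. Crosses under the line mark a list with no peak at that gene, and a grey line joins the 2 values of a gene, from 60.28 and 32.83 at LAMP1 down to genes with no peak in either list. Joined values need not come from a shared peak. Those of GNPTAB do not overlap, and the list 2 values of CLN6 and LITAF are from peaks without a list 1 overlap.

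Among the structural membrane proteins, 5 of 11 had a shared peak, and LAMP1 and PIP4P1 stood far above the other 3. LAMP1, the major glycoprotein of the lysosomal membrane, had 418 tags in list 1 and 462 in list 2, or 8.86 and 10.5 CPM (tags per 1000000 kept tags). Its folds were 60.28 and 32.83, so the list with more tags had the lower fold over input. The peaks covered chr13:113296445-113297634 (1190 bp) and chr13:113296496-113298057 (1562 bp), with the summits 150 and 117 bp before the start site.

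PIP4P1 encodes a lysosomal membrane protein named as a phosphoinositide phosphatase. At this gene, 192 and 225 tags gave 14.41-fold and 31.93-fold, with an FDR of 0 in both lists. The list 1 peak covered chr14:20461187-20462261, over the upper end of the gene at 20461434. No start site is listed for PIP4P1 in the sequence table, so its promoter was not searched.

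The other shared peaks of this group were weak in list 1. CD63, a tetraspanin of late endosomes, had 137 and 341 tags and 4.57-fold and 7.77-fold (FDR 100% and 0.2%), in peaks of 1305 bp (chr12:55728247-55729551) and 4291 bp. The much wider list 2 peak took in the whole list 1 peak. CD68, a LAMP family glycoprotein best known from macrophages, had 39 and 51 tags and 4.96-fold and 10.63-fold (FDR 100% and 0.9%), 122 and 111 bp before its start. Its list 1 peak (chr17:7579088-7579883) had its centre 479.5 bp from the end of EIF4A1. LITAF, a small membrane protein of late endosomes, had a shared peak deep in the gene, at chr16:11572080-11572890 in list 1, 14434 bp from the nearest listed start, with 51 and 143 tags and 3.98-fold and 4.51-fold (FDR 100% and 22.44%). Scores in this group, minus 10 times the decimal log of the caller's p, ran from 52.61 at LITAF to 3223.06 at LAMP1, which ranked first in list 1 by fold.

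Of the ion channels, 4 of 9 had a shared peak (44.4%). The shares were 45.5% for structural proteins, 40.0% for transporters and 57.1% for sorting genes, against 16.8% of all protein-coding genes. Median lower folds were 22.4 for channels, 4.96 for structural proteins, 9.32 for transporters and 8.48 for sorting genes. These medians rest on 4 to 6 genes each, and the ranges overlapped, with 5.31 to 34.25 for channels and 3.98 to 32.83 for structural proteins. CLCN7, the lysosomal chloride-proton exchanger, had 226 and 323 tags and 34.25-fold and 52.26-fold, the third highest lower fold of all 5377 shared pairs. MCOLN1, the calcium-releasing TRPML channel of lysosomes, had 253 and 323 tags and 25.96-fold and 40.65-fold, with summits 36 and 40 bp before the start. CLCN6, an exchanger of late endosomes related to CLCN7, had 218 and 237 tags and 18.93-fold and 41.08-fold. The list 1 peaks of these 3 genes covered chr16:1474523-1475668 (1146 bp), chr19:7522137-7523159 (1023 bp) and chr1:11805323-11806706 (1384 bp), and those of list 2 were wider, at 1771, 1821 and 1420 bp. In each of the 3 the FDR was 0 in both lists, and scores ran from 703.84 (CLCN6, list 1) to 1854.78 (CLCN7, list 2). The MCOLN1 peak also lay inside an oppositely directed long noncoding RNA gene, LOC105372261.

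TPCN1, an endolysosomal cation channel, had 83 and 130 tags and 5.31-fold and 10.7-fold (FDR 74.88% and 0.21%, scores 93.14 and 340.2), at chr12:113220721-113221673 in list 1. Its summits were 660 bp apart, on either side of the start site, and its list 1 centre was 103 bp from the start of DRC10. Which of 2 neighbouring genes such a peak acts on was not tested.

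OSTM1, the beta subunit that CLCN7 needs for stability, did not follow its partner. It had a peak in list 2 alone, with 55 tags and 6.72-fold (FDR 0.8%), and the nearest list 1 peak was 115 kb away. MCOLN1 and its relatives also stood apart from each other. MCOLN2 had a list 2 peak of 7.07-fold and MCOLN3 one of 3.31-fold (FDR 3.9% and 23.89%), with no list 1 peak at either. TPCN2, a further endolysosomal cation channel, and TMEM175, a lysosomal potassium and proton channel, had no peak.

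Among the 15 transporters, 6 had a shared peak. SLC36A1, which exports amino acids from lysosomes by proton coupling, had the strongest, with 122 and 127 tags and 25.49-fold and 21.8-fold at chr5:151447062-151448065 and an FDR of 0 in both lists. By the outer coordinates of the gene this peak is over 100 kb from either end, at 102967.5 bp in list 1. RefSeq lists a second start site at position 151447603 of chromosome 5, and the summits were 40 and 30 bp before it, at the pair of CACGTG copies shown above. A peak that gene ends alone place in the gene body was therefore at a listed start.

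SPNS1, which exports lysophospholipids, had 209 and 286 tags and 15.36-fold and 17.14-fold, with an FDR of 0 in both lists, at chr16:28974159-28975462 in list 1. SLC38A7, a lysosomal glutamine exporter, had nearly equal values, 151 and 141 tags and 11.13-fold and 10.11-fold (FDR 6.54% and 0.21%), at chr16:58684037-58685370. With SLC36A1, these genes stood above the other transporters by lower fold. CLN3, a lysosomal membrane protein mutated in Batten disease, had 150 and 182 tags and 8.53-fold and 20.61-fold (FDR 24.49% and 0), at chr16:28491261-28492609. The summits of its 2 peaks were at the same base. CTNS, the cystine exporter, had 70 and 85 tags and 6.05-fold and 6.9-fold (FDR 100% and 0.42%) at chr17:3636013-3637060, in the space shared with the start of SHPK, 286.5 bp from the list 1 centre. Scores of these 5 ran from 72.59 (CTNS, list 1) to 826.38 (SPNS1, list 2). ABCB9, a peptide transporter, had 90 and 95 tags and 4.22-fold and 4.89-fold (FDR 100% and 4.51%) in a peak over 19 kb from its nearest listed start, and its single CACGTG lay over 28 kb from those summits.

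The cholesterol-handling pair had no shared peak in the genes or within 1 kb. With a window of 5 kb, NPC1 gained a shared peak. NPC2, the soluble cholesterol carrier of the lumen, had a list 2 peak of 65 tags and 6.29-fold at its start (FDR 0.74%). NPC1, the membrane protein that receives cholesterol from it, had a list 2 peak of 53 tags and 6.02-fold (FDR 7.86%) inside the gene, 63101 bp from the start. MFSD8, whose loss causes a neuronal ceroid lipofuscinosis, had the highest fold of the list 2 only members, 11.43 with 45 tags (FDR 0.86%). MFSD12, a cysteine importer, had 7.79-fold. SLC36A4, an amino acid transporter, had a list 2 peak of 4.96-fold with 23 tags (FDR 22.58%), 10478.5 bp from its nearest listed start. A further list 2 peak of SLC36A4, 218 bp from a listed start, had 3.59-fold with 101 tags (FDR 12.37%). SLC66A1, an exporter of cationic amino acids, was the 1 member with a peak in list 1 alone, of 67 tags and 5.56-fold (FDR 70.65%). SLC17A5 (sialic acid exporter), SLC29A3 (nucleoside transporter) and SIDT2 (nucleic acid transporter) had no peak.

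Of the 7 sorting genes, 4 had a shared peak. IGF2R, the larger mannose phosphate receptor, had 161 and 234 tags and 25-fold and 42.5-fold, with an FDR of 0 in both lists and its summits 69 and 72 bp before the start. Its list 1 peak covered chr6:159968595-159969552 (958 bp). GNPTG, the gamma subunit of the enzyme that starts the mannose phosphate tag, had 158 and 212 tags and 12.07-fold and 17.88-fold (FDR 10.21% and 0). That peak, at chr16:1350936-1352423 in list 1, also lay over the start of the oppositely directed gene TSR3, 198.5 bp from the list 1 centre. M6PR, the smaller receptor, had 58 and 72 tags and 3.93-fold and 7.71-fold (FDR 100% and 0.24%) at chr12:8949375-8950351, and KLRG1 has a start 181 bp from its list 1 centre. The receptors thus differed by over 5 times in fold within each list, 25 against 3.93 and 42.5 against 7.71.

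CLN6, which helps newly made hydrolases leave the endoplasmic reticulum, had 69 and 93 tags and 4.89-fold and 7.73-fold (FDR 51.69% and 0.23%). This peak (chr15:68229216-68230298) was over 22 kb from the ends of the gene but within 29 bp of a second listed start at 68229728 of chromosome 15, with summits 698 bp apart. Scores of the 4 shared peaks ran from 60 (M6PR, list 1) to 1415.99 (IGF2R, list 2). GNPTAB, which encodes the catalytic subunits that work with GNPTG, had a list 1 peak of 3.47-fold near its start (FDR 100%) and a list 2 peak of 5.16-fold 47916 bp from the start, inside the gene. SORT1, the sorting receptor sortilin, had list 2 peaks only, of 3.7-fold in the gene and 3.25-fold at its start. CLN8, the partner of CLN6 in hydrolase export, had no peak.

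The remaining structural proteins had list 2 peaks or none. TMEM192, a lysosomal membrane protein, had 85 tags and 10.27-fold at its start (FDR 0.12%), LAMP2, the relative of LAMP1 that serves chaperone-mediated autophagy, had 46 tags and 7.44-fold (FDR 1.29%), and SCARB2, the carrier of glucocerebrosidase, had 46 tags and 5.71-fold (FDR 7.87%). LAMP3, TMEM106B and PIP4P2, the relative of PIP4P1, had no peak. Over the 12 list 2 only members the strongest peak had a median fold of 6.5, 7 were at or under 5% FDR (58.3%, against 38.8% of all 5138 list 2 only genes), and the nearest list 1 peak was between 10.1 kb (MFSD12) and 257 kb (SCARB2) away. At 10 of the 12 a list 2 peak lay within 1 kb of a gene end or a listed start (83.3%, against 66.6% of all list 2 only genes).

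Within families the peaks were uneven. LAMP1 stood at 60.28-fold and 32.83-fold while LAMP2 had a list 2 peak alone and LAMP3 none, and MCOLN1 stood at 25.96-fold and 40.65-fold while MCOLN2 and MCOLN3 had list 2 peaks alone. Among all 19 shared members, 8 had an FDR of 0 in both lists (LAMP1, PIP4P1, CLCN7, CLCN6, MCOLN1, SLC36A1, SPNS1 and IGF2R), or 42.1% against 3.01% of the 3360 protein-coding genes with a shared peak. In list 1, 6 had an FDR of 100% (31.6%, against 38.9%). In list 2, 18 of the 19 were at or under 5% FDR (94.7%, against 73.2%), the exception being LITAF. By lower fold, 7 of the 19 were among the first 100 of the 5377 shared pairs, and the median lower fold of the members was 10.1 against 5.54 over the 3360 protein-coding genes with a shared peak.

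Depth-scaled tag counts (CPM) were as high or higher in list 2 at each of the 19 members, from a ratio of 1.00 (SLC38A7) to 3.01 (LITAF) with a median of 1.37. Over all shared pairs 71.7% were higher in list 2, with a median ratio of 1.2. The members' list 2 peaks were also wider, with a median of 1458 bp against 1083 bp, and per kb of peak 9 members had more tags in list 2 and 10 fewer. Folds were higher in list 2 at 16 of the 19 (84.2%, against 62.7% of all shared pairs), the exceptions being LAMP1, SLC36A1 and SLC38A7. Ranks of tag counts in the lists followed each other (Spearman's rho 0.856 across the 19 members, whose lists come from 1 IP each, against 0.803 across all shared pairs). Summits of the 2 lists were a median of 23 bp apart, against 38 bp for all shared pairs, and 15 of the 19 were within 100 bp (78.9%, against 75.2% of all shared pairs), a share close to the general one.

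**Figure D4:**
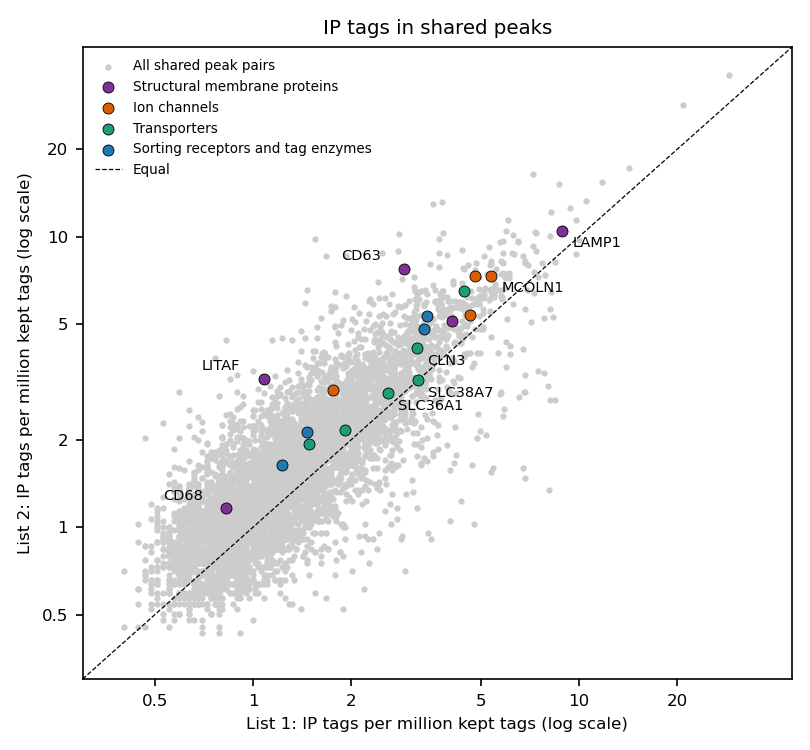
IP tags scaled to kept tags (CPM) in list 1 (horizontal) and list 2 (vertical), both on log scales, for all 5377 shared peak pairs (grey) and the 19 members (coloured by group). The dashed line marks equal values, and the members lie on or above it, with SLC38A7 on the line and LITAF and CD63 farthest above.

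A list of 40 other lysosomal membrane and sorting genes was counted for comparison. Of these, 16 had a shared peak at the gene (40.0%, against 16.8% of all protein-coding genes). At a gene end 11 had one (27.5%, against 11.3%). Shared peaks had 8-fold or more in each list at 6 (against 3.28% of all genes). At 3 they were at or under 5% FDR in each (7.5%, against 1.3%). Within 1 kb of a listed start site, 6 of 28 had a shared peak (21.4%), against 16 of 36 members (44.4%) and 12.8% of all genes. Median gene length was 41.6 kb in this list, 35.2 kb in the members and 24.1 kb in all protein-coding genes. NAGPA, the enzyme that uncovers the mannose phosphate tag, led with 159 and 288 tags and 21.02-fold and 25.83-fold. MFSD1, a lysosomal membrane transporter, had 158 and 258 tags and 12.62-fold and 27.35-fold. Next came SLC12A9 with 12.18-fold and 13.71-fold, in a peak 14633.5 bp from its nearest listed start in list 1 and 40.5 bp from the start of TRIP6. SORCS1, a sortilin relative, had 10.66-fold and 9.98-fold (list 1 FDR 44.06%), 385613.5 bp from its start within a gene of 607 kb. Peaks were thus present at the receptor gene IGF2R and at GNPTG and NAGPA, which act before it, whereas GNPTAB had no shared peak.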

How the data were processed

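Peaks were called with MACS 1.4.2 on each IP against the input of the same number at a p cutoff of 1e-05, with 1 tag kept per position and the larger library scaled to the smaller, per the file headers. Bowtie2, deepTools, HOMER and GRCh38 are named per the submitters' processing notes, without versions or roles. The authors deposited, for each peak, the count of IP tags, not scaled to library size. The deposited fold is the ratio of IP tags to those expected from input and local background. The score that the authors deposited is 10 times the negative log10 of the peak's p, and their FDR is a percent.

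From these, peaks were assigned to RefSeq genes and start sites (GRCh38.p14) with pandas 2.3.3, numpy 2.4.6 and matplotlib 3.10.9 under Python 3.11.15. Summits were placed at the peak start plus the deposited offset minus 1, and the sources used here do not give the caller's convention, so they may be 1 bp off. The rules were tested on simulated peaks. Counts over members stand beside the same counts over all protein-coding genes, and no test was made. The members and lists were chosen with earlier results of these data known. Full values are given for up to 5 members per group with the highest lower fold, then for the others with a peak. Sequences are from up to 6 members of highest lower fold at a gene end and 2 without a peak. SLC36A1 and GNPTG were added for their CACGTG copies and shared peak at a listed start. CLN3, SLC38A7, CD63 and M6PR, which had both too, were not added. Exons and introns are not given because the table used here holds whole genes. Alternatives were stricter thresholds, other overlaps and distances, summits, and each list alone.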

Additional observations from a re-analysis of the deposited data

How the results depend on the processing

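The count of 19 members with a shared peak was 17 to 20 with an overlap of at least 50%, summits in place of centres, or windows of 500 bp or 5 kb. It was 11 at a fold of at least 8, 12 at a score of at least 100 and 8 at or under 5% FDR, while the share of all protein-coding genes fell from 16.8% to 3.28%, 6.25% and 1.3%. At gene ends the count of 14 became 7 at or under 5% FDR, while the share of all genes fell from 11.3% to 1.08%. It was 10 to 16 members under the other thresholds, overlaps and distances. At listed start sites (alternatives chosen after the data were seen) the count of 16 became 10 at a fold of at least 8. It became 7 at or under 5% FDR. The share of all genes with a listed start fell from 12.8% to 2.24% and 1.19%. Leaving out 1 replicate gave 21 to 32 members at the gene, 16 to 24 at a gene end and 18 to 26 at a start site, the higher value being list 2 alone. By group, structural proteins had 2 instead of 5 under either the fold or the FDR threshold, transporters 2 instead of 6 under the FDR threshold, and sorting genes 2 and 1 instead of 4. Of the first 5 members by lower fold, 3 (LAMP1, MCOLN1 and CLCN7) stayed among the first 5 by depth-scaled tags, where CLCN6 and SPNS1 replaced IGF2R and SLC36A1. With summits moved by 1 bp up or down the chromosome (also chosen after seeing the data), both summits lay inside a CACGTG at 1 or 2 members instead of 3. No paired analysis was possible because the peak caller had combined every IP with its input before deposit. Depth per peak is limited to the tags counted, as few as 23 at a member's strongest peak by fold (SLC36A4), and these counts carry no replicate error.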

Other observations

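Copies of CACGTG were spaced at short distances in several promoters. In LAMP1 the 4 upstream copies started 16, 17 and 17 bp apart and the copies next to the start site 27 bp apart. MCOLN1 also had 27 bp between its copies, CLN3 29 bp, CLCN6 23 bp, CLCN7 20 bp, GNPTG 16 bp and SLC36A1 35 bp. In IGF2R the 3 copies were 58 and 46 bp apart. Longer spacings were 114 bp in LAMP1, between the upstream copies and those next to the start site, and 198 bp in SPNS1. These spacings were looked at after the peaks were known and have no comparison set.

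Some members held further peaks away from their main peak in 1 list only. CLN6 had a list 2 peak of 10.83-fold with 58 tags (FDR 0.75%), higher than its shared peak and 10446.5 bp from the nearest listed start. LITAF had a list 2 peak of 4.64-fold with 88 tags (FDR 1.89%) at the end of the gene opposite to its shared peak, and ABCB9 one of 4.34-fold with 55 tags (FDR 9.03%) at a listed start. TPCN1 had a list 2 peak of 4.72-fold inside the gene (FDR 13.76%), and SLC36A1 one of 5.84-fold, 1057 bp from the outer end of the gene (FDR 23.97%). SLC38A7 had a second list 1 peak of 4.62-fold, with an FDR of 100%.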
